A study of Mus musculus with 12 samples.

Results

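Acan, Sox9, Sox5, Sox6, Matn1, Matn3, Comp, Hapln1, Cnmd and Mia are 10 genes of cartilage matrix and its SOX regulators, chosen by name with earlier results of these data known, out of 19937 genes with a measurement. Their transcripts were followed in osteoblasts, the cells that build bone, and in endothelial cells, which line blood vessels. Both were sorted from long bones of female C57BL/6 mice, either tumor-bearing or tumor-free. The tumor-bearing mice had received 500000 EO771 cells, a mouse mammary carcinoma line, into the heart, and the tumor cells had grown in the long bones for about 2 weeks. No age, injection of the tumor-free mice or other allele is given in the labels. The osteoblast gate was negative for GFP, TR119, CD45, SCA1 and CD31 and positive for CD51. The endothelial gate was negative for GFP, TR119 and CD45 and positive for SCA1 and CD31. CD51 is an integrin chain that other skeletal cells can also carry, and the gate held no cartilage marker.

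RNA of 5000 sorted cells was measured on each of 12 Affymetrix Mouse Gene 1.0 ST arrays, 3 for each of the 4 groups. The labels call the replicates biological but do not give the number of mice behind an array or say whether osteoblast and endothelial arrays share mice. Values are log2 intensities, so 1 unit is a doubling. Each of the 10 genes had 1 probe set. Levels of different probe sets cannot be compared, so each gene is followed across arrays only. A gene was tested where it exceeded its array's 40th percentile in 3 or more arrays, which kept 14217 genes and 9 of the 10. Matn1 did so in 2 arrays and was not tested with them, and Hapln1 did so in the 6 osteoblast arrays only. The label genes separated the cell types on every array. Sp7, an osteoblast transcription factor, lay at 7.73 to 8.75 in osteoblasts and 5.51 to 6.18 in endothelial cells. Alpl and Col1a1 were likewise higher in all osteoblast arrays. Cdh5, an endothelial cadherin, lay at 5.54 to 6.23 and 11.39 to 11.91, and Pecam1 was also higher in all endothelial arrays.

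Cartilage is made by chondrocytes, which fill the space around them with collagen fibrils and a gel of proteoglycan. SOX9 is the transcription factor that chondrocytes need to form, and SOX5 and SOX6 bind DNA beside it and strengthen its action on cartilage genes. Aggrecan, the large proteoglycan that holds water in the tissue, is tied to hyaluronan by the link protein that Hapln1 encodes. COMP and the matrilins are adaptor proteins that connect collagen fibrils with other matrix proteins. Chondromodulin, the product of Cnmd, inhibits vessel growth, and Mia encodes a small protein secreted by chondrocytes. In long bones such cells lie in the growth plate and at the joint surface, next to the bone that osteoblasts build.

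The start regions of 4 matrix genes are shown because they differ in base composition, although all 4 genes were highest on the same 3 osteoblast arrays, as described further on. The 250 bases before the RefSeq start are printed (GRCm38.p6), each 5′ to 3′ on the gene's strand. Capitals mark matches, on either strand, to GGGCGG, the letters of a GC box, to ACAAAG or ACAATG, letters that SOX proteins can bind, and to TATAAA. The Acan window is at chr7:79052976-79053225 on the plus strand and lies within the annotated noncoding gene Gm26633. That of Matn3 is at chr12:8947679-8947928 on the plus strand, that of Cnmd at chr14:79662184-79662433 on the minus strand, and that of Mia at chr7:27181150-27181399 on the minus strand.
Acan: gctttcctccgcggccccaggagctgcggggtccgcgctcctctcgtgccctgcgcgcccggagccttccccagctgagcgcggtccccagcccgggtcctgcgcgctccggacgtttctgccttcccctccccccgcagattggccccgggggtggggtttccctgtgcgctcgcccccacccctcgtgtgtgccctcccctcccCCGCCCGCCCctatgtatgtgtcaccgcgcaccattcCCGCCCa
Matn3: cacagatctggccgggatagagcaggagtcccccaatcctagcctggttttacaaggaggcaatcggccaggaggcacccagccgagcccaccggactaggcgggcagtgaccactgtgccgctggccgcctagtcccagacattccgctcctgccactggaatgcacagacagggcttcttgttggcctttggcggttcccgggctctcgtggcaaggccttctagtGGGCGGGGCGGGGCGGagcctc
Cnmd: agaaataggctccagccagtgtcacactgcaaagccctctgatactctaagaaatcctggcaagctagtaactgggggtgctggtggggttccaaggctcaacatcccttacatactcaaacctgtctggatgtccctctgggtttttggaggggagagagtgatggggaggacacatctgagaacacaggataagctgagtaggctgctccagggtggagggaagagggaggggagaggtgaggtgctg
Mia: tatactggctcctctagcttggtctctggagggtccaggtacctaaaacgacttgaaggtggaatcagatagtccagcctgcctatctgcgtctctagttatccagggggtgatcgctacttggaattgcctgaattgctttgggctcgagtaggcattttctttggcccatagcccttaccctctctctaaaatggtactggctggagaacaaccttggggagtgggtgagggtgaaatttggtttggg

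The Acan and Matn3 windows held 74.4% and 65.2% G and C and those of Cnmd and Mia 54.0% and 50.4%, against a median of 52.4% over all windows of this length. GGGCGG, read on both strands and counting overlapping matches, was found 3 times each in Acan and Matn3 and not in Cnmd or Mia. The Hapln1 window (54.4% G and C, no GGGCGG) is not printed, since 107 of its bases lie within the annotated gene. Of the printed Cnmd window, 11 bases lie within the annotated Cnmd gene. The SOX letters were in none of the 4 windows printed. Of the members, 8 had an entry, with 13 windows in all, since Sox6 has 6 starts. ACAAAG or ACAATG was in 6 of these 13, all of Sox5 or Sox6, and in 25.2% of 32851 windows of all genes (18.3% of the 14107 windows of genes tested on the arrays). The Sox5 window and all 6 Sox6 windows lie within the annotated Sox5 or Sox6 gene over their full 250 bases. GGGCGG was in 4 of the 13, in 32.7% of all windows and in 53.9% of those of tested genes. TATAAA was in 1 of the 13, in 12.4% and in 7.20%. Sox9 and Comp had no entry.

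Between the cell types, the matrix genes Acan, Comp, Cnmd and Mia and the regulator Sox9 were higher in osteoblasts than in endothelial cells of tumor-free mice, by 3.37-fold for Sox9 and 11.9-fold to 29.0-fold for the others. The same 5 genes and Matn3 were higher in tumor-bearing mice. Hapln1, which passed the filter through osteoblast arrays only, is given apart, from a fit without the filter. Cnmd and Mia exceeded the percentile in 8 arrays each, fewer than 3 of them endothelial, so their inclusion also depended on osteoblast arrays. Both were called in tumor-free mice under all 22 other settings, among them no filter (highest limma adjusted p = 0.0149 for Cnmd and 0.00173 for Mia). The tests are those of limma with Benjamini-Hochberg adjustment over all genes tested. Of all genes, 5.38% were called higher and 7% lower in osteoblasts of tumor-free mice, and 4.89% higher with tumor. In bulk samples, more cells of a type and more RNA per cell cannot be told apart. P-values set a difference against the spread between these arrays, shared over the 4 groups.

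**Figure D1:**
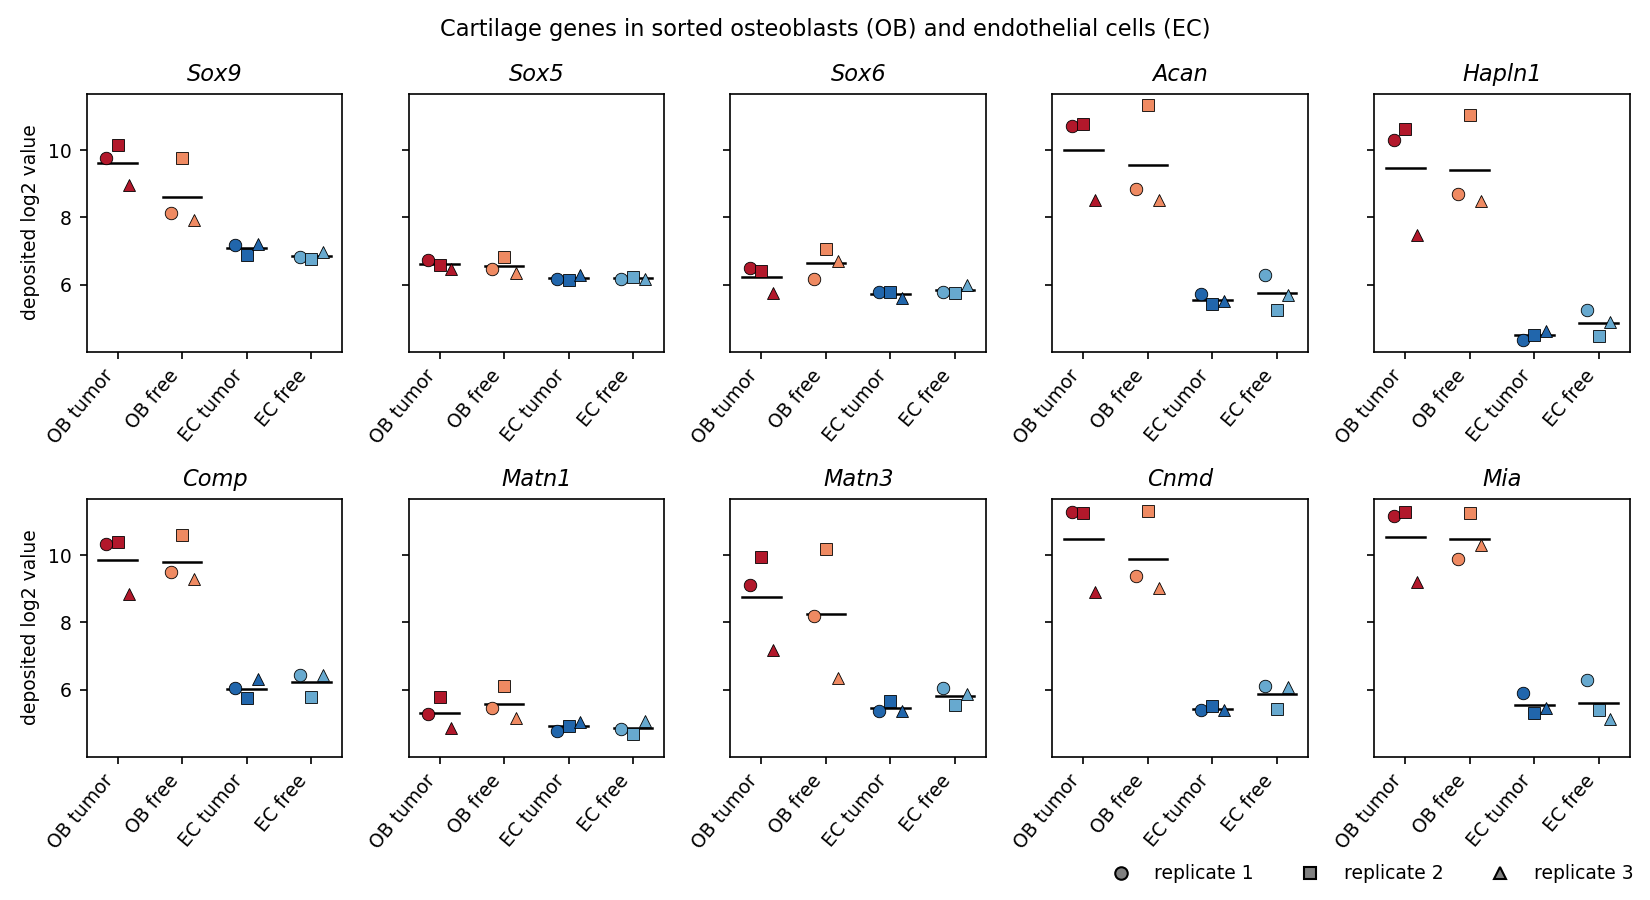
Log2 intensity (vertical axis) of the 10 cartilage genes in the 4 groups (horizontal axis), 1 panel per gene. Each point is an array, with the replicate number as its marker, and each bar is the mean of 3 arrays. In 8 panels every osteoblast point lies above every endothelial point, and in Sox6 and Matn1 the cell types overlap.

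Among the regulators, Sox9 read 9.75, 10.14 and 8.95 in osteoblasts of tumor-bearing mice, replicates 1 to 3, and 8.14, 9.77 and 7.91 in tumor-free osteoblasts. In endothelial cells it read 7.19, 6.90 and 7.22 with tumor and 6.81, 6.76 and 6.98 without. All osteoblast arrays were higher than all endothelial arrays. The means were 8.61 ± 1.01 (SD, n = 3) in osteoblasts and 6.85 ± 0.12 (SD, n = 3) in endothelial cells of tumor-free mice, a log2 difference of 1.75 (95% interval 0.78 to 2.72, limma adjusted p = 0.0245). In tumor-bearing mice the means were 9.62 ± 0.60 and 7.10 ± 0.18 (SD, n = 3 each), a difference of 2.51 (1.54 to 3.48, limma adjusted p = 0.00385). The call in tumor-free mice was lost without endothelial tumor-free replicate 1 (limma adjusted p = 0.0745), replicate 2 (0.0774) or replicate 3 (0.0599), and with only the groups compared in the fit (0.0754).

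Sox5 and Sox6, the partners of SOX9, did not pass the test in either state. Sox5 read 6.73, 6.60 and 6.47 in osteoblasts with tumor, 6.46, 6.84 and 6.36 in those without, and 6.13 to 6.30 in the 6 endothelial arrays. Every osteoblast array was above every endothelial array, by a small step. The differences were 0.35 in tumor-free mice (0.06 to 0.64, limma adjusted p = 0.123) and 0.40 in tumor-bearing mice (0.11 to 0.69, limma adjusted p = 0.0835). Without osteoblast tumor-free replicate 2, or with array weights, Sox5 passed in tumor-bearing mice (limma adjusted p = 0.0321 and 0.0318). Sox6 read 6.50, 6.41 and 5.77 in osteoblasts with tumor, 6.18, 7.07 and 6.70 in those without, and 5.61 to 6.00 in endothelial cells. The lowest osteoblast array, tumor-bearing replicate 3, lay inside the endothelial range. The Sox6 differences were 0.80 (0.28 to 1.33, limma adjusted p = 0.0516) in tumor-free and 0.50 (-0.03 to 1.02, limma adjusted p = 0.246) in tumor-bearing mice. The tumor-free value passed in 7 of 22 alternatives, among them without osteoblast tumor-free replicate 1 (limma adjusted p = 0.0143) and without osteoblast tumor-bearing replicate 3 (0.0257).

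Acan, the aggrecan core protein, read 10.71, 10.77 and 8.52 in osteoblasts with tumor and 8.84, 11.33 and 8.52 in those without. Endothelial arrays read 5.73, 5.42 and 5.50 with tumor and 6.29, 5.26 and 5.70 without. The cell types were far apart on every array, and the osteoblast arrays also differed widely among themselves. Acan was higher in osteoblasts by 3.81 (2.15 to 5.47, limma adjusted p = 0.00681) in tumor-free and 4.45 (2.79 to 6.11, limma adjusted p = 0.00316) in tumor-bearing mice. These are 14.0-fold and 21.8-fold.

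Hapln1, the link protein, read 10.29, 10.63 and 7.47 in osteoblasts with tumor and 8.69, 11.03 and 8.49 in those without. It read 4.36, 4.51 and 4.63 in endothelial cells with tumor and 5.25, 4.46 and 4.90 without, at the 20.4th to 33.5th percentile of those arrays. The lowest osteoblast array was tumor-bearing replicate 3, and it stood above every endothelial array. Since only osteoblast arrays carried Hapln1 past the filter on dim genes, its inclusion there depended on the difference itself, and it was fitted over all 19937 genes without the filter. In that fit the difference was 4.53 (2.70 to 6.36, limma adjusted p = 0.00601) in tumor-free and 4.96 (3.13 to 6.79, limma adjusted p = 0.00404) in tumor-bearing mice.

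Comp, the pentameric adaptor protein of cartilage and tendon, read 10.34, 10.39 and 8.84 in osteoblasts with tumor and 9.48, 10.61 and 9.30 in those without. Endothelial arrays read 6.04, 5.75 and 6.31 with tumor and 6.42, 5.79 and 6.44 without. No array of one cell type reached the range of the other. The differences were 3.58 (2.59 to 4.56, limma adjusted p = 0.000395) in tumor-free and 3.83 (2.84 to 4.81, limma adjusted p = 0.000275) in tumor-bearing mice.

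Matn3, a matrilin of growing cartilage, read 9.11, 9.94 and 7.17 in osteoblasts with tumor and 8.20, 10.17 and 6.35 in those without. Endothelial cells read 5.35, 5.66 and 5.36 with tumor and 6.05, 5.56 and 5.88 without. Osteoblast tumor-free replicate 3, at 6.35, was the osteoblast array nearest to the highest endothelial array, at 6.05. The difference passed in tumor-bearing mice, at 3.28 (1.37 to 5.20, limma adjusted p = 0.0357), and did not pass in tumor-free mice, at 2.41 (0.50 to 4.33, limma adjusted p = 0.108). The difference between these differences was 0.87 (-1.84 to 3.58, limma adjusted p = 0.939). Without osteoblast tumor-free replicate 3 the tumor-free value was 3.36 and passed (limma adjusted p = 0.0173). The call in tumor-bearing mice was lost without osteoblast tumor-bearing replicate 1 (0.106) or 2 (0.123), endothelial tumor-bearing replicate 1 (0.0953), 2 (0.0799) or 3 (0.0967), or endothelial tumor-free replicate 1 (0.0541), 2 (0.0541) or 3 (0.0552).

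Matn1, another matrilin of cartilage, read 5.28, 5.79 and 4.87 in osteoblasts with tumor, 5.46, 6.11 and 5.16 in those without, and 4.68 to 5.06 in endothelial cells. The cell types overlapped, and the highest value was in osteoblast tumor-free replicate 2. In a limma fit over all 19937 genes without the filter, the difference between cell types was 0.72 in tumor-free mice (0.13 to 1.30, adjusted p = 0.147) and 0.40 in tumor-bearing mice (-0.18 to 0.99, adjusted p = 0.485).

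Cnmd, the vessel growth inhibitor, read 11.27, 11.24 and 8.91 in osteoblasts with tumor and 9.37, 11.30 and 9.01 in those without. Endothelial arrays read 5.40, 5.51 and 5.40 with tumor and 6.10, 5.43 and 6.07 without. Each osteoblast array stood above each endothelial one, and 3 of the 6 osteoblast arrays were much higher than the rest. Cnmd was 16.3-fold higher in osteoblasts of tumor-free mice (log2 difference 4.03, 2.53 to 5.52, limma adjusted p = 0.00272). In tumor-bearing mice it was 32.8-fold higher (5.04, 3.54 to 6.53, limma adjusted p = 0.000719).

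Mia read 11.17, 11.27 and 9.19 in osteoblasts with tumor and 9.88, 11.24 and 10.28 in those without. Endothelial arrays read 5.91, 5.31 and 5.45 with tumor and 6.29, 5.40 and 5.14 without. The osteoblast arrays stood well apart from the endothelial ones, and tumor-bearing replicate 3 was the lowest of them. The difference was 4.86 (3.63 to 6.08, limma adjusted p = 0.000216) in tumor-free and 4.99 (3.76 to 6.21, limma adjusted p = 0.000193) in tumor-bearing mice. Over all 12 arrays, 8 of the 10 genes had every osteoblast array above every endothelial array, which 5.38% of the genes tested did (765 genes, by coincidence the same number as were called higher). The exceptions were Sox6 and Matn1, and Matn1 is not among the genes tested. Of the 8, Hapln1, Cnmd and Mia were included among the genes tested thanks to osteoblast arrays, which favors such separation.

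Tumor in the bone was compared next, within each cell type. None of the 9 genes tested passed in osteoblasts, where limma called 8 genes or 0.0563% of those tested. At an unadjusted p under 0.05 the count was 1 of the 9, Sox9, against 9.78% of all genes. The Sox9 difference was 1.01 (0.04 to 1.98, unadjusted p = 0.0427, limma adjusted p = 0.49). Tumor-free replicate 2, at 9.77, lay above tumor-bearing replicates 1 and 3, so the groups overlapped. Over the alternatives the Sox9 difference ran from 0.66 to 1.59 and its limma adjusted p from 0.0981 to 0.752.

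**Figure D2:**
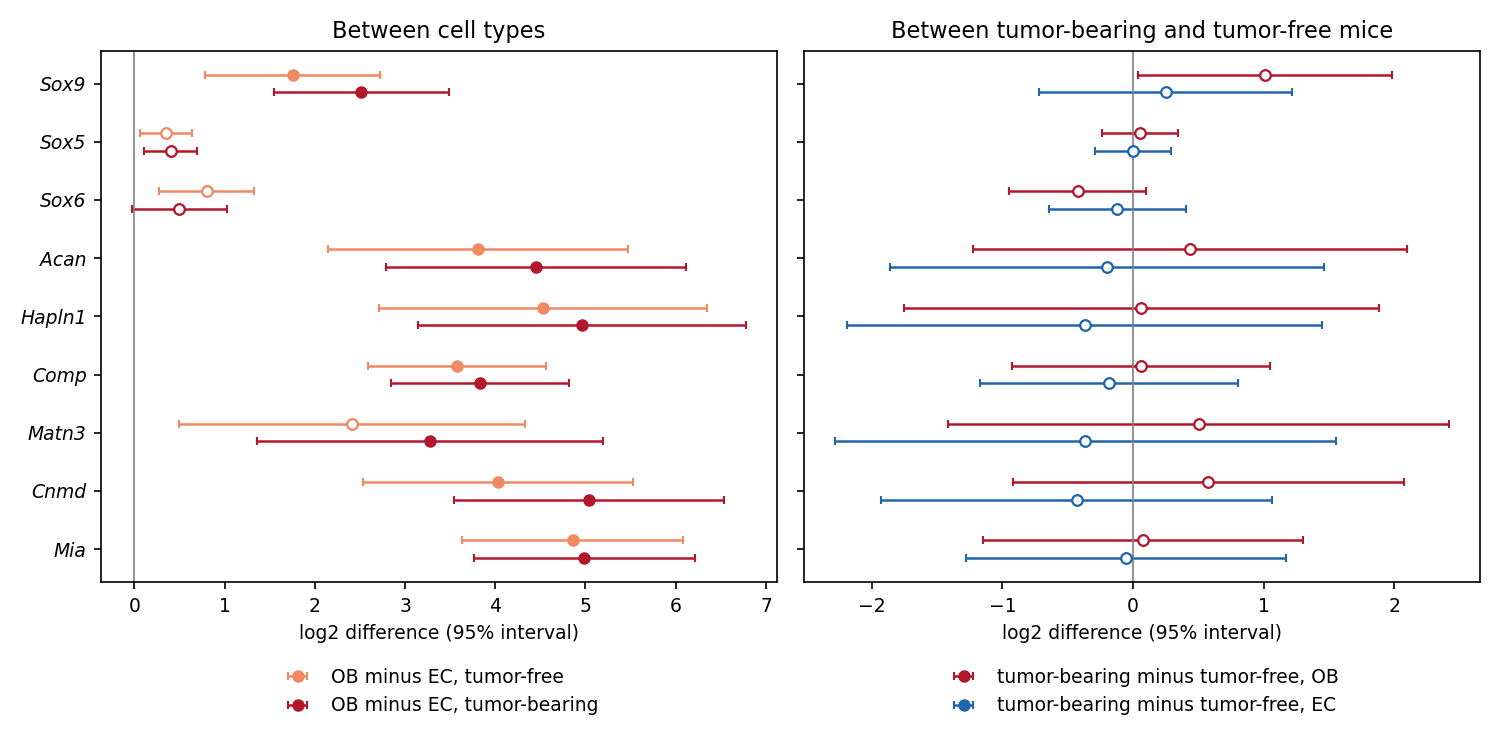
Log2 difference (horizontal axis) of the 9 cartilage genes tested (vertical axis), with 95% intervals of limma. The left panel gives osteoblasts minus endothelial cells and the right panel tumor-bearing minus tumor-free, and filled points have an adjusted p under 0.05 over the genes that passed the filter, which Hapln1 did through osteoblast arrays only. Filled points are in the left panel only, and in the right panel the interval of Sox9 in osteoblasts, 0.04 to 1.98, is the one that leaves out 0. That interval uses a spread shared with the less variable endothelial arrays and is too narrow for osteoblasts.

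The matrix genes gave wide intervals around small differences in osteoblasts. The difference was 0.44 (-1.22 to 2.10) in Acan, 0.06 (-1.76 to 1.88) in Hapln1 and 0.06 (-0.92 to 1.05) in Comp. It was 0.50 (-1.41 to 2.42) in Matn3, 0.57 (-0.92 to 2.07) in Cnmd and 0.08 (-1.15 to 1.30) in Mia. Sox5 was at 0.05 (-0.24 to 0.34) and Sox6 at -0.42 (-0.95 to 0.10), the lowest value of the 9. The limma adjusted p of the 9 genes lay between 0.49 and 0.989. Matn1, in the fit without the filter, was at -0.27 (-0.85 to 0.32, limma adjusted p = 0.733). The intervals allow changes of more than 2-fold in either direction for Acan, Hapln1, Matn3 and Mia. They do not exclude such changes in Comp or Cnmd, since they use a spread shared with the less variable endothelial arrays. The within-group SD in osteoblasts and endothelial cells was 0.80 and 0.33 in Comp and 1.29 and 0.27 in Cnmd.

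In endothelial cells the 9 differences ran from -0.43 in Cnmd (-1.93 to 1.06) to 0.25 in Sox9 (-0.72 to 1.22). None passed in limma, each with an adjusted p of 1, and none had an unadjusted p under 0.05. Of all genes, 0.0141% were called and 4.59% had an unadjusted p under 0.05. The difference of tumor effects between the cell types passed in none of the 9 (limma adjusted p from 0.872 to 0.987) and in 0.0281% of all genes. At an unadjusted p under 0.05 it was also 0 of the 9, against 6.47%. It was largest in Cnmd, at 1.01 (-1.11 to 3.12).

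The osteoblast arrays differed widely within groups. In each of the 10 genes the range of 3 osteoblast arrays, with tumor and without, was larger than the difference between the group means. Hapln1 spanned 8.95-fold among tumor-bearing and 5.82-fold among tumor-free arrays, and Matn3 6.81-fold and 14.1-fold. Within-group SDs in osteoblasts were 1.68 in Matn3, 1.58 in Hapln1, 1.42 in Acan, 1.29 in Cnmd, 0.965 in Mia, 0.835 in Sox9 and 0.800 in Comp. Those 7 stood at percentiles 95.3 to 99.8 of all genes tested, whose median was 0.227. Sox5 was at percentile 44.4 and Sox6 at percentile 78.1. In endothelial cells the SDs of the 9 genes lay between 0.066 and 0.479, at percentiles 4.32 to 91.3. These percentiles were not matched on brightness.

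**Figure D3:**
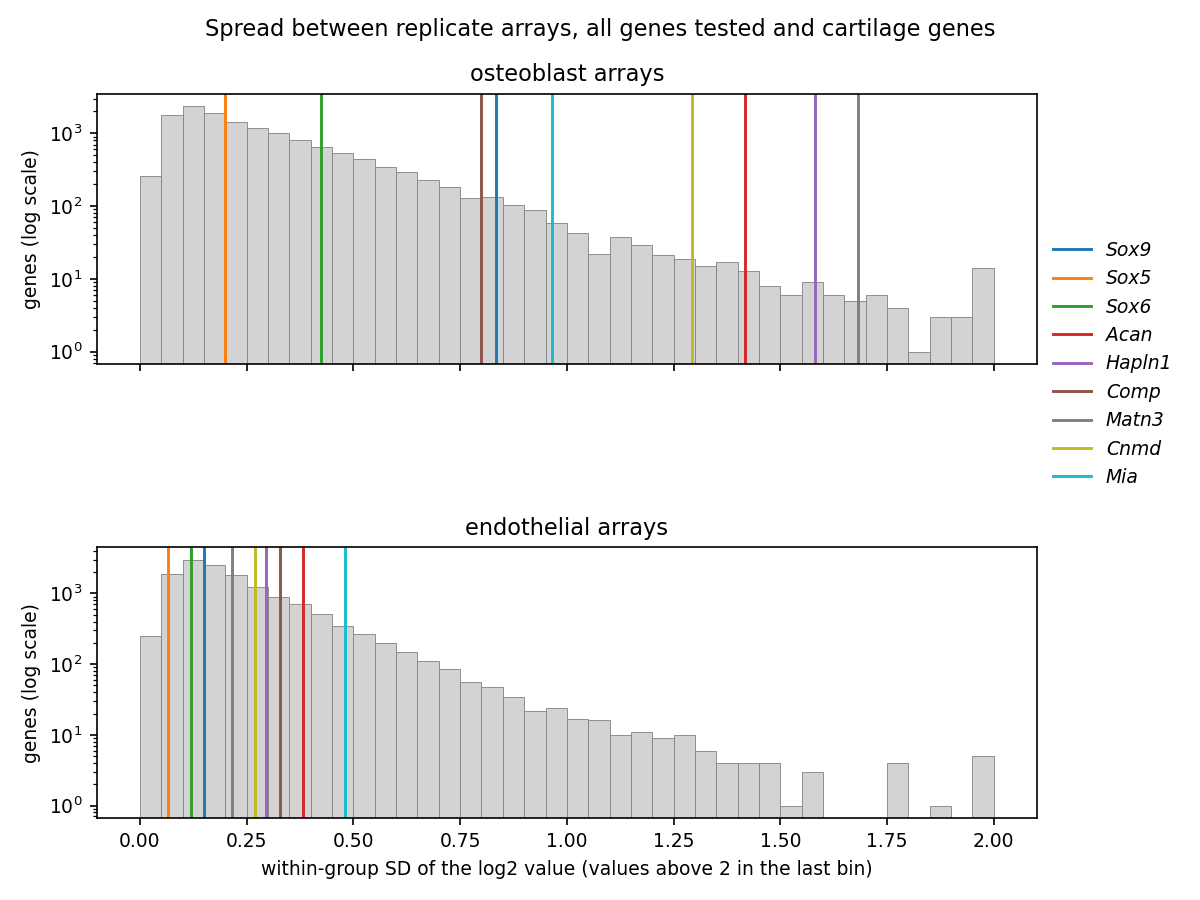
Histograms of the within-group SD of log2 values (horizontal axis) over all genes tested, with the number of genes on a log vertical axis, for osteoblast and endothelial arrays. Vertical lines mark the cartilage genes. In osteoblasts Matn3, Hapln1, Acan and Cnmd lie at 1.29 or more, against a median of 0.227, and in endothelial cells the lines lie between 0.066 and 0.479. Values above 2 are in the last bin.

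The genes varied over the same arrays. Osteoblast tumor-free replicate 2 was the highest osteoblast array in 8 of the 10 genes and tumor-bearing replicate 3 the lowest in 6, with tumor-free replicate 3 the lowest in the other 4. All 10 genes were above their own osteoblast mean in tumor-free replicate 2, 9 each in tumor-bearing replicates 1 and 2, 1 each in tumor-free replicates 1 and 3, and 0 in tumor-bearing replicate 3. Over all genes tested, 45.2% to 54.6% were above their own mean on an array. Replicates 1 and 2 with tumor and replicate 2 without were the 3 highest arrays in 8 of the 10 genes and in 5.51% of all genes tested. These 3 arrays were picked out after their values were seen. They come from both states, so the profile runs across the comparison of tumor and no tumor.

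**Figure D4:**
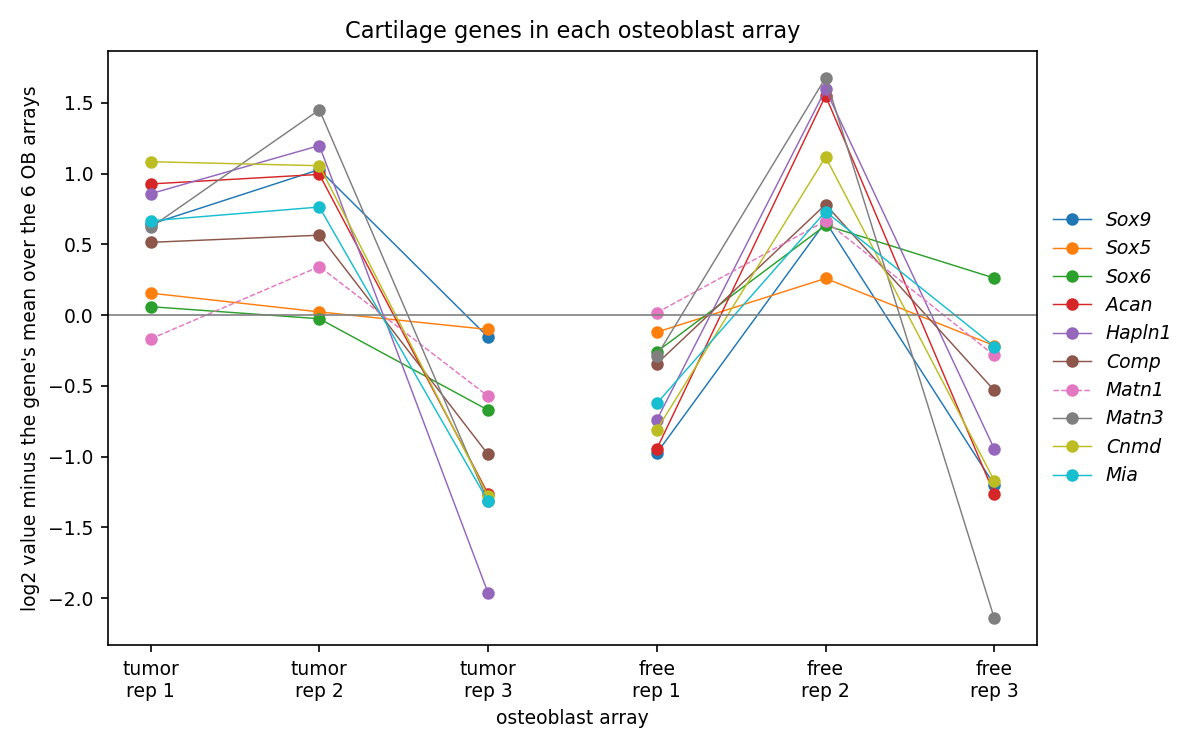
Log2 value minus the gene's own mean over the 6 osteoblast arrays (vertical axis) for each cartilage gene on each array (horizontal axis). Lines only join the points of a gene, since replicates have no order, and Matn1, which was not tested, is dashed. All 10 points are above 0 in tumor-free replicate 2 and below 0 in tumor-bearing replicate 3.

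Other genes of cartilage and of neighbouring tissues were followed in 7 lists. Of 7 cartilage collagens, 3 were higher in osteoblasts than in endothelial cells of tumor-free mice and 0 lower, with a median difference of 0.53 against -0.01 over all genes. The fibril collagens Col11a1 (2.56, limma adjusted p = 0.00049), Col2a1 (1.57, 0.0233) and Col11a2 (0.53, 0.0434) passed, and Col9a1 did not (1.41, 0.0855). Col2a1, the main collagen of cartilage, read 8.93, 9.02 and 7.81 in osteoblasts with tumor and 8.34, 9.63 and 8.15 in those without. Its highest array was again tumor-free replicate 2 and its lowest tumor-bearing replicate 3.

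Of 15 other genes of cartilage matrix and growth plate tested, out of 18 listed, 7 were higher and 0 lower in osteoblasts of tumor-free mice, with a median of 1.78. The matrix protein gene Chad was higher by 3.91 (limma adjusted p = 0.00163), Ucma, a growth plate gene, by 3.66 (0.00364), Pcolce2, a collagen processing enhancer, by 3.59 (0.00314) and Clec3a, a cartilage lectin, by 3.40 (0.00501). Ucma read 10.72, 10.46 and 8.79 in osteoblasts with tumor and 9.01, 10.95 and 8.26 in those without. Epyc and Scrg1, chosen here after their values were seen, spanned still more without passing (limma adjusted p = 0.375 and 0.266 between cell types). Like Hapln1, both passed the filter through osteoblast arrays only, so their inclusion depended on the high osteoblast arrays themselves. Epyc, a small proteoglycan, read 7.92, 7.72 and 4.36 with tumor and 4.70, 8.15 and 5.59 without, and its endothelial range was 4.21 to 4.63. The lowest Epyc array, tumor-bearing replicate 3, was inside that endothelial range.

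Of 9 genes of hypertrophic cartilage tested, several of which osteoblasts also express, 7 were higher and 0 lower in osteoblasts of tumor-free mice, with a median of 2.73. The collagenase gene Mmp13 was higher by 7.05 (limma adjusted p = 1.05e-08), Ibsp, a bone matrix protein, by 4.39 (8.15e-06), Alpl, the mineralizing phosphatase, by 4.39 (5.41e-07) and Pth1r by 2.73 (0.000598). The list was split over the 6 osteoblast arrays, in examples chosen after their values were seen. Mmp13 lay at 12.02 to 12.31 and Ibsp at 12.26 to 12.46. Panx3, a channel protein of hypertrophic cartilage and bone, read 8.76, 7.74 and 6.37 with tumor and 6.44, 10.25 and 6.69 without, and Pth1r read 8.89, 9.27 and 8.52 and then 8.45, 9.97 and 8.54. Both had the same 3 highest arrays as most of the 10 cartilage genes. Col10a1, the collagen of hypertrophic cartilage, spanned 2.53 and was also highest in tumor-free replicate 2. Mmp13 was the gene of these lists called in a tumor comparison, higher in endothelial cells by 2.18 (limma adjusted p = 0.00124). Endothelial arrays read 7.53, 6.96 and 7.40 with tumor and 5.40, 4.93 and 5.00 without, the latter below the array medians of 5.95 to 6.04. In the difference of tumor effects limma called 1 gene of this list lower and 0 higher, against 0.0281% of all genes. Ibsp was at 1.29 in the endothelial tumor comparison (limma adjusted p = 0.611). Of the markers of marrow stromal cells, 7 of 7 had a positive difference between the same endothelial arrays, against 51.4% of all genes. Their median was 1.06, against 0.01 over all genes. At an unadjusted limma p under 0.05 the count was 6 of 7, against 4.59%, and limma called 0, against 0.0141%. Their median level was 7.86 to 8.33 on the tumor-bearing and 7.28 to 7.43 on the tumor-free endothelial arrays, and their part in the Mmp13 value was not tested. Of 10 osteoblast markers tested, Ibsp among them, 7 had a positive difference between these endothelial arrays, with a median of 0.06. At an unadjusted limma p under 0.05 the count was 1 of 10, and limma called 0. Their part was not tested either.

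Of 11 genes of the joint surface and tendon, 3 were higher and 1 lower in osteoblasts of tumor-free mice, with a median of 0.57. Fmod, a collagen-binding proteoglycan, was higher by 3.96 (limma adjusted p = 0.000174), Prg4, the lubricin of the joint surface, by 3.76 (0.000345) and Thbs4 by 3.71 (0.0087). Erg, which endothelial cells also express, was lower (-1.85, 0.00526). Fmod lay at 5.08 to 5.39 in endothelial arrays and, like Hapln1, passed the filter through osteoblast arrays only. Its inclusion, and its place in the count of 3, therefore depended on the difference itself. Prg4 read 11.19, 10.76 and 9.38 in osteoblasts with tumor and 9.96, 9.72 and 10.91 in those without. Thbs4, a relative of Comp, read 10.50, 10.68 and 7.18 with tumor and 9.23, 8.61 and 10.01 without. In both, tumor-free replicate 2 was the lowest tumor-free array, unlike in the cartilage genes. Tnmd, the tendon relative of Cnmd and chosen after its values were seen, read 9.61, 10.15 and 5.14 with tumor and 7.38, 7.36 and 7.12 without. The inclusion of Tnmd also depended on osteoblast arrays. Tumor-bearing replicate 3 was the lowest osteoblast array in Fmod, Prg4, Thbs4 and Tnmd, whereas Erg was lowest in tumor-bearing replicate 1. Of the 11 genes, 2 were above their own osteoblast mean in tumor-bearing replicate 3.

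Of 12 genes that make and sulfate chondroitin chains, the sugars that aggrecan carries, 4 were higher and 1 lower in osteoblasts of tumor-free mice, with a median of 0.66. Ugdh, which makes a sugar precursor, was higher by 2.75 (limma adjusted p = 0.0013), Csgalnact2 by 0.96 (0.033) and Chsy3 by 0.59 (0.0375), and Csgalnact1 was lower (-1.08, 0.00507). Of 8 genes of aggrecan breakdown, namely 7 metalloproteinases and the inhibitor Timp3, 3 were higher and 4 lower, with a median of -0.52. The lower ones were Timp3 (-1.12, limma adjusted p = 0.0189) and the proteases Adamts5 (-2.34, 0.00111) and Adamts4 (-1.11, 0.015), the main aggrecanases, and Adamts1 (-1.72, 9.13e-05). Timp3 was chosen for naming after its values were seen. Of 18 family relatives, 5 were higher and 1 lower, with a median of 0.23. They included Vcan, an aggrecan relative (2.09, limma adjusted p = 0.00141), and the thrombospondins Thbs2 (1.31, 0.00286) and Thbs1 (2.42, 0.00631). In the osteoblast tumor comparison limma called 0 genes in each of the 7 lists, against 0.0563% of all genes. At an unadjusted p under 0.05 the counts were 3 of 12 chondroitin genes, 3 of 8 genes of aggrecan breakdown, 2 of 11 joint and tendon genes, 2 of 18 relatives and 0 in the other lists, against 9.78% of all genes.

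**Figure D5:**
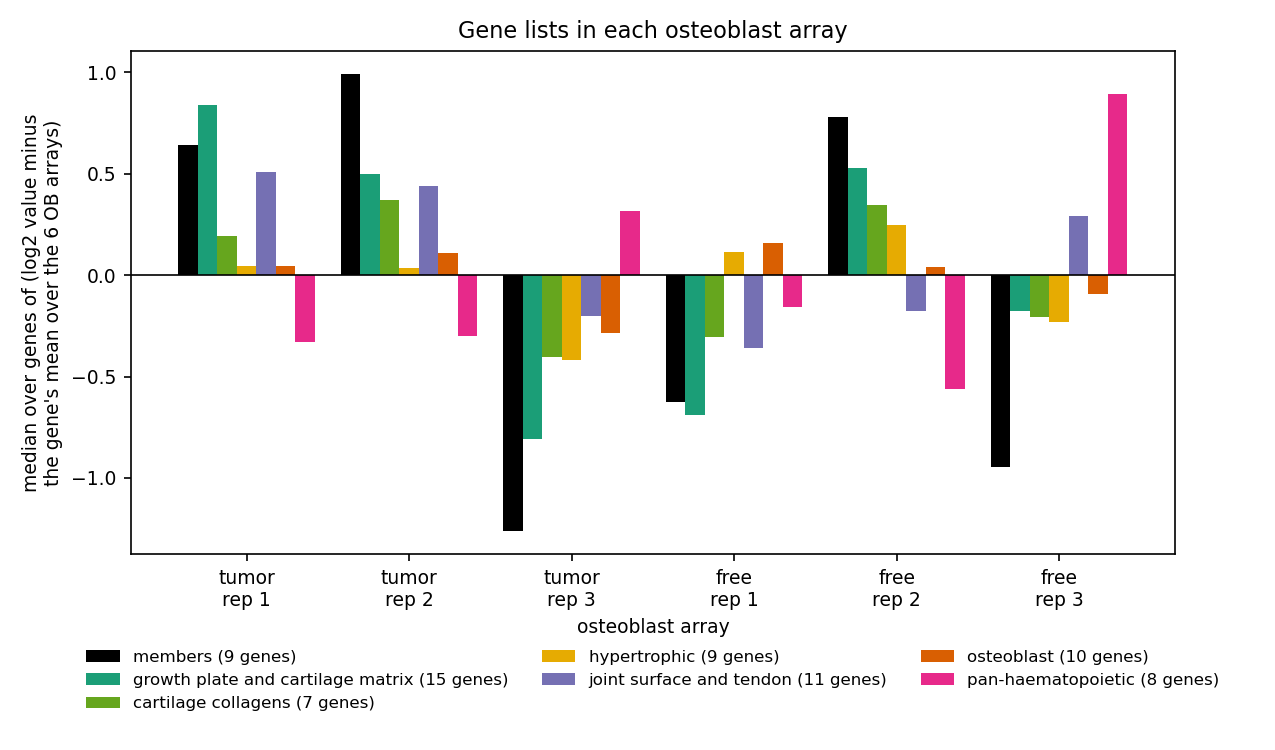
Median deviation of the genes of each list from their own mean over the 6 osteoblast arrays, in log2 units (vertical axis), by array. Bars start at 0 and replicates have no order. The cartilage genes run from -1.26 in tumor-bearing replicate 3 to 0.99 in tumor-bearing replicate 2, and the osteoblast markers from -0.29 to 0.16.

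The lists differed in how they ran over the osteoblast arrays. The 9 cartilage genes had median deviations of 0.64, 0.99 and -1.26 with tumor and -0.62, 0.78 and -0.95 without. The cartilage collagens ran 0.19, 0.37 and -0.40 with tumor and -0.30, 0.35 and -0.20 without, the same signs at a smaller size. The 10 osteoblast markers tested ran 0.04, 0.11 and -0.29 and then 0.16, 0.04 and -0.09. Single osteoblast markers varied more than that median: 1 of the 10 was above its own mean in tumor-bearing replicate 3, and their median range over the 6 arrays was 0.84, against 2.23 in the 9 cartilage genes and 0.63 in all genes tested.

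Markers of blood cells also differed between osteoblast arrays, although the gate removed CD45-positive cells. The 8 of 10 listed pan-haematopoietic markers that were tested deviated by -0.33, -0.30 and 0.31 with tumor and by -0.16, -0.56 and 0.89 without. Their median level was 6.07 to 7.30 with tumor and 5.61 to 7.40 without. They were highest in replicate 3 of both states, where the cartilage genes were low, and they were also below their mean in tumor-free replicate 1, where the cartilage genes were low too. The 9 of 10 neutrophil markers tested stood out in tumor-free replicate 3 (median level 10.54, against 6.23 to 7.66 on the other osteoblast arrays). The part of these cells in the profile of the cartilage genes was not tested.

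Genes outside the 10 with the most similar profile were ranked by root mean square difference from their mean profile over the 6 osteoblast arrays. The 8 closest were Naaladl2 (0.175), Slc16a4 (0.193), Col9a1 (0.196), Thbs1 (0.228), Omd (0.239), Lsp1 (0.244), Papss2 (0.245) and Snora7a (0.254), against a median of 0.853 over all genes tested. Col9a1, a collagen on the surface of cartilage fibrils, read 8.78, 9.22 and 7.44 with tumor and 7.62, 9.30 and 7.92 without. Papss2, which makes the sulfate donor for proteoglycans, read 10.17, 10.15 and 8.36 with tumor and 8.38, 10.00 and 8.10 without. Omd, a small proteoglycan of bone, read 9.19, 8.94 and 7.71 with tumor and 8.06, 9.15 and 7.86 without. In all 3 genes the arrays were split as in Acan, with replicates 1 and 2 of tumor-bearing mice and replicate 2 of tumor-free mice high. Of the 10 genes themselves, Comp was closest to the mean profile (0.201) and Matn3 farthest among those tested (0.685). Sox5 stood at 0.674 and Sox6 at 0.644. The profiles were not scaled, so a distance reflects the size of a profile as well as its shape. Sox5, with a range of 0.48 over the osteoblast arrays, and Matn3, with 3.82, had the same 3 highest arrays as Acan. The tested genes among the 10 are also part of the mean they are compared with.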

How the data were processed

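RNA of sorted osteoblasts and endothelial cells was measured on 12 arrays, 3 per group. Per the submitters' processing notes the authors processed the arrays with affy (version, summary method and build not given in the sources used here), and what was deposited are log2 intensities whose medians lay at 5.95 to 6.04 per array. Amplification from 5000 cells can distort transcript proportions, and the number of arrays limits precision. Of 34760 probe sets, 21640 had 1 gene symbol in the platform annotation, 1321 several and 11799 none. Symbols were updated by Entrez number (21553 matched, RefSeq table of GRCm38.p6). The brightest probe set stood for a gene, which left 19937 genes. Genes over the 40th percentile of their array in 3 or more arrays, whatever the group, were tested (14217).

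One limma model (limma 3.58.1, R 4.3.3) held a mean for each group over the 12 arrays, with eBayes (prior degrees of freedom 2.36). Two-sided p-values were Benjamini-Hochberg adjusted over every tested gene, at a threshold of 0.05. Intervals are 95% intervals of that model, not adjusted for the number of genes. Each gene has 1 spread for all 4 groups, so an interval for osteoblasts is too narrow where they vary more than endothelial cells. The steps were tested on simulated data. The 10 genes and all lists were chosen with earlier results of these data known. Named from each list were up to 4 genes with the smallest p between cell types in tumor-free mice and any called between tumor-bearing and tumor-free mice. Likeness was the root mean square difference of centred profiles. Other settings tried were arrays centred on their medians, quantile normalization, a filter at the 60th percentile or none, mean probe sets, trend and robust eBayes, array weights, only the groups compared, a replicate block, each array left out, and both osteoblast groups limited to replicates 1 and 2.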

Additional observations from a re-analysis of the deposited data

How the results depend on the processing

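Over 22 alternatives, limma called 0 of 198 values (9 cartilage genes in each refit) in the osteoblast and 0 of 198 in the endothelial tumor comparison. The lowest adjusted p over these alternatives were 0.0981 and 0.842. Between cell types all 198 values were positive in each comparison. Many of these repeat the main value by construction. A changed filter, trend and robust eBayes, or leaving out an array of a group not compared cannot alter a gene's log2 difference. The 198 values are therefore not 198 separate checks of the sign. Signs turned in the tumor comparisons, all among values that did not pass. Leaving out 1 array gave osteoblast log2 differences from -0.0440 to 0.19 in Sox5, -0.0834 to 1.32 in Acan, -0.52 to 1.06 in Hapln1, -0.20 to 0.57 in Comp, -0.44 to 1.47 in Matn3 and -0.29 to 0.75 in Mia. In endothelial cells the ranges were -0.0479 to 0.0324 in Sox5, -0.44 to 0.0705 in Acan and -0.29 to 0.28 in Mia. The difference of effects ranged from -0.0446 to 0.19 in Sox5, -0.15 to 1.43 in Hapln1, -0.0163 to 0.76 in Comp, -0.0776 to 1.83 in Matn3 and -0.23 to 0.81 in Mia. Quantile normalization gave -0.0040 for Comp in osteoblasts, and array weights -0.0089 for Sox5 in endothelial cells.

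Over all genes, the 8 calls in the osteoblast tumor comparison became 5 with quantile normalization, 1 with array weights, 0 with only the groups compared (1046 unadjusted) and 45 with replicates 1 and 2 only, and 1 to 25 without 1 array. The 2 endothelial calls became 2 to 6 without 1 array. The 4 calls on the difference of effects became 8 with osteoblast replicates 1 and 2 only, and 0 to 7 without 1 array. The cause was not tested. Deviations of same-numbered arrays had correlations of -0.0521 to 0.074 over the cell types and states. Between tumor-bearing and tumor-free mice, 2 of 6 osteoblast and 4 of 6 endothelial arrays correlated best with their own number. Whether same-numbered arrays share mice is not in the labels, and these values cannot decide it. With a replicate block the osteoblast count was 1 and the count for the difference of effects was 1, and no cartilage gene changed its call. Few arrays and wide spreads limit these genes: the osteoblast interval of Matn3 ran from -1.41 to 2.42.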
